A study of Mus musculus with 6 samples.

Results

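E-cadherin, the keratins of hepatocytes and bile ducts, and a set of biliary markers were followed in mouse liver after a short hairpin RNA (shRNA) against the sphingosine-1-phosphate receptor gene S1pr2. The set has 9 genes of the 16426 listed in at least 1 library: Cdh1, Epcam, Krt8, Krt18, Krt7, Krt19, Krt23, Sox9 and Spp1. They were chosen by symbol, for their roles in epithelial adhesion, hepatocyte and duct filaments and duct fate. The choice was made with earlier results of these data known, among them the differences of Cdh1 and Krt23, so the values of the 9 genes between the groups are given as a description, with no test. RNA came from 6 samples of snap-frozen liver, called livers here, of mice on a mixed B6:sv129 background, aged 7 to 12 weeks. The scramble group (n = 3) had received AAV8, a virus vector that infects hepatocytes efficiently, with a scrambled shRNA, and the knockdown group (n = 3) AAV8 with an shRNA against S1PR2, both into the tail vein. The series text states that the mice were male and drank dexamethasone, a synthetic glucocorticoid, at approximately 0.84 mg/kg for 7 days. The sample labels carry the shRNA alone, and no mice without dexamethasone were analysed here. The promoter of the hairpin and its sequence were not stated in the sources used, and a single hairpin stands against a single control, so effects of the lower receptor and other effects of the hairpin cannot be told apart.

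E-cadherin is the calcium-dependent adhesion protein that joins epithelial cells at adherens junctions, and in liver it is carried by duct cells and by hepatocytes, most of all around the portal vein. Keratins form filaments from pairs of a type I and a type II chain. Hepatocytes make a single pair, Krt8 (type II) with Krt18 (type I), whereas bile duct cells add Krt7 (type II) and Krt19 (type I). Sox9 is a transcription factor of duct cells and of hepatocytes next to the ducts, Spp1 encodes osteopontin, a secreted matrix protein of ducts and of activated macrophages, and Epcam is a surface adhesion protein of duct cells.

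In the knockdown livers Cdh1 and the keratin pair Krt8 and Krt18, which duct cells make as well as hepatocytes, were higher. The duct keratins Krt7 and Krt19 and the duct factor Sox9 were not separated between the groups. Duct genes did not behave alike, however. Epcam, at low counts, lay wholly above the scramble livers, and Spp1 was high in a single knockdown liver. Among duct markers outside the 9 genes, 6 of 32 tested rose in edgeR (18.8%, against 3.02% of all genes) and 0 fell. Cdh1 and Krt23 stood 6.40-fold and 6.58-fold higher, Krt18 2.64-fold and Krt8 2.09-fold higher. In 5 of the 9 genes (Cdh1, Epcam, Krt8, Krt18 and Krt23) every knockdown liver lay above every scramble liver, an arrangement found in 15.1% of the 12230 genes tested. Of the 9 genes 3 (Cdh1, Krt18 and Krt23) were among the genes called, at an edgeR adjusted p under 0.05, and 6 were not. Over all genes tested 7.66% were called, 3.02% higher and 4.64% lower. All 9 passed the filter on low counts. Their median log2 fold change was 1.07, against 0.01 over all genes tested. These counts follow from how the genes were chosen and support nothing by themselves.

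**Figure D1:**
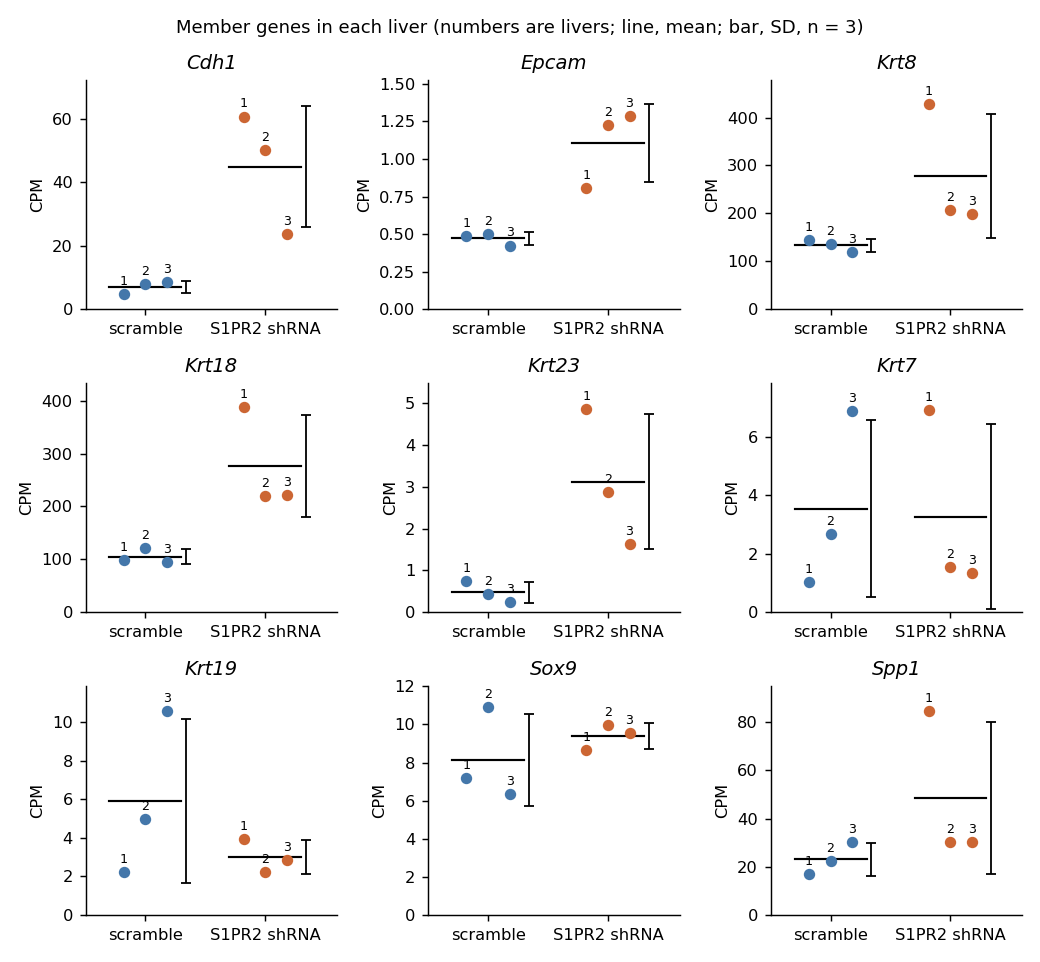
Level of the 9 genes in each liver, in CPM (counts scaled to library size), with livers numbered within each group, the line at the group mean and the bar giving the SD (n = 3). The 5 genes Cdh1, Epcam, Krt8, Krt18 and Krt23 do not overlap between groups, and knockdown liver 1 is the highest liver for Cdh1, Krt8, Krt18, Krt23, Krt7 and Spp1.

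Values are given in the order of livers 1, 2 and 3 of each group. S1pr2 stood at 4.41, 5.23 and 6.66 CPM with the scramble shRNA and at 3.03, 2.20 and 2.22 CPM after knockdown (log2 fold change -1.12, SE 0.24, edgeR adjusted p = 0.0301). Its call was lost without scramble liver 2 or 3, or knockdown liver 2 or 3, and on each of the 3 FPKM scales (limma adjusted p = 0.0677, 0.0684 and 0.0991). Libraries held 16558775 to 17410160 expected counts. Of the 937 genes called, 369 were higher and 568 lower; with upper-quartile factors the split was 506 and 476, and on log2(FPKM + 0.1) 570 and 254. The labels number the samples of a group and do not state whether each came from its own mouse, so each p-value reflects only how far these samples spread, which may be technical. In whole liver, fewer cells of a type and less RNA per cell cannot be told apart.

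Krt8, the type II keratin of hepatocytes, was at 145.1, 135.8 and 118.7 CPM with the scramble shRNA and at 428.0, 206.3 and 198.9 CPM after knockdown. Knockdown liver 1 was far above the other two, which were still above every scramble liver. The group means were 133.2 ± 13.4 and 277.7 ± 130.2 CPM (SD, n = 3 each), a log2 fold change of 1.06 (SE 0.31, 95% interval 0.34 to 1.78). Krt8 was not among the called genes, and without knockdown liver 1 its log2 fold change was 0.60 and it was called. Krt18, the type I partner, was at 97.6, 121.2 and 94.9 CPM in the scramble livers and at 387.4, 219.5 and 221.0 CPM in the knockdown livers. The order of the knockdown livers was again led by liver 1, and the groups were clearly apart. Its means were 104.6 ± 14.4 and 276.0 ± 96.5 CPM (SD, n = 3 each), with a log2 fold change of 1.40 (SE 0.24, 95% interval 0.83 to 1.97). Krt18 was not called without scramble liver 1 (1.35) or scramble liver 3 (1.33), and it was called without knockdown liver 1 (1.07).

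Krt8 RNA was lower relative to Krt18 RNA after knockdown. The ratio of Krt8 to Krt18 in FPKM, which counts fragments per length of transcript, was 1.15, 0.86 and 0.96 with the scramble shRNA and 0.85, 0.72 and 0.69 after knockdown. The lowest scramble and the highest knockdown ratio lay next to each other, with no overlap. The means were 0.99 ± 0.14 and 0.76 ± 0.08 (SD, n = 3 each), so the group difference of Krt18 was larger than that of Krt8 on that scale. Measured by the root mean square difference of log2 CPM over the 6 livers, each gene centred on its scramble mean, Krt18 was the 44th nearest of 8966 genes to Krt8, at 0.31.

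Krt23, a type I keratin found at low levels in liver, was at 0.74, 0.44 and 0.24 CPM with the scramble shRNA and at 4.86, 2.88 and 1.64 CPM after knockdown. These levels came from 12, 7 and 4 counts and from 96, 47 and 28 counts. Even the lowest knockdown liver was above the highest scramble liver. The log2 fold change was 2.72 (SE 0.53, 95% interval 1.49 to 3.95), and the range within a group was wide, the highest liver being 3.04 times the lowest in the scramble and 2.96 times in the knockdown group. Krt23 lost its place among the called genes without scramble liver 2 (2.66), scramble liver 3 (2.40), knockdown liver 1 (2.24) or knockdown liver 2 (2.77), and with limma-voom (2.68).

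Promoter sequence is shown for Krt8, Krt18, Krt23 and Epcam, whose knockdown livers lay above the scramble livers, and for the duct keratin Krt7, whose groups overlapped. Each run is the 250 bases before the annotated start of the transcript, 5′ to 3′ on the gene's strand, from RefSeq on GRCm38.p6, which differs from the mm9 build of the counts. Capitals mark CAGGTG or its reverse complement CACCTG, the form of E-box through which repressors of the SNAI and ZEB families are known to act on the E-cadherin promoter.
Krt8 (chr15:102004343-102004592, minus strand): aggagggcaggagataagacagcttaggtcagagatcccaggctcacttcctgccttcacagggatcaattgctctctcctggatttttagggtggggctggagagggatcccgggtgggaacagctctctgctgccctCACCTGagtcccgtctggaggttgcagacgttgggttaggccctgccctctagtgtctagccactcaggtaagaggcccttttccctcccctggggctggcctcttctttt
Krt18 (chr15:102027966-102028215, plus strand): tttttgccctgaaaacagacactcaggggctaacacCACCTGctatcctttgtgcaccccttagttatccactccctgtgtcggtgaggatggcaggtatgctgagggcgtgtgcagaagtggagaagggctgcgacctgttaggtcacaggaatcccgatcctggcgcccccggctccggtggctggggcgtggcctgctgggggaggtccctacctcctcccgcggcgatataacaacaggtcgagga
Krt23 (chr11:99493121-99493370, minus strand): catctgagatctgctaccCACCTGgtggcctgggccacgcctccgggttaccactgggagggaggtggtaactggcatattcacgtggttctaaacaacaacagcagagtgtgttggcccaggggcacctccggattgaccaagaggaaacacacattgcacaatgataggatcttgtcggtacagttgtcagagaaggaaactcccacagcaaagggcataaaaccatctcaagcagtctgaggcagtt
Krt7 (chr15:101412153-101412402, plus strand): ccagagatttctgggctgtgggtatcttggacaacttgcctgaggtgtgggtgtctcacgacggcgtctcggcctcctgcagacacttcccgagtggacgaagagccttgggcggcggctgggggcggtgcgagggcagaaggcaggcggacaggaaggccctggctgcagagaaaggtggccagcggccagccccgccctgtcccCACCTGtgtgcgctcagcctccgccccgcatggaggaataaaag
Epcam (chr17:87635729-87635978, plus strand): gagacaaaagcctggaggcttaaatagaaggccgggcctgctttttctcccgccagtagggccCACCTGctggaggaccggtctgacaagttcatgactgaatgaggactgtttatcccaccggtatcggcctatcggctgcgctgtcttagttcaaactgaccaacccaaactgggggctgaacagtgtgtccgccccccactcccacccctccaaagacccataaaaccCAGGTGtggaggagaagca

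Of the 9 genes 6 had an entry in that RefSeq set. Cdh1, Krt19 and Sox9 had none, so the E-cadherin promoter itself was not searched. Each of the 6 held at least 1 such E-box in an entry, Spp1 in the first of its listed starts. Over all 27025 genes with an entry the share was 19.4%, and over single entries 17.2% of 32851. The match lay 111 bases before the start in Krt8, 214 in Krt18, 232 in Krt23, 44 in Krt7 and 98 in Spp1, and Epcam held 2, at 187 and 19. Both strands were searched, and matches count among those to the general E-box CANNTG, which 69.3% of genes held. The promoters of keratins that were higher and of Krt7, which was not, held the motif alike. The TATA element TATAAA, searched in the same way, matched in 1 of the 6 genes (Spp1), against 14.3% of genes. A match is a description of letters, the motifs were picked with the sequences in view, and GC content ran from 43.6 to 66% in the windows with a match.

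Krt7, the type II keratin of bile ducts, was at 1.04, 2.68 and 6.90 CPM with the scramble shRNA and at 6.93, 1.53 and 1.35 CPM after knockdown. The high livers were scramble 3 and knockdown 1, so the groups overlapped through their whole range. The highest scramble liver was 6.62 times the lowest. The log2 fold change was -0.10 (SE 0.88, 95% interval -2.25 to 2.05), an interval that covers a change of more than 4-fold either way. Its sign turned without scramble liver 3 (0.83), knockdown liver 2 (0.23) or knockdown liver 3 (0.26), and without knockdown liver 1 the value was -1.30.

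Krt19, the type I duct keratin, was at 2.21, 4.98 and 10.6 CPM in the scramble livers and at 3.95, 2.20 and 2.87 CPM in the knockdown livers. Scramble liver 3 was again the highest, and the knockdown livers lay within the scramble range or just under it. The log2 fold change was -0.97 (SE 0.56, 95% interval -2.30 to 0.36), and without scramble liver 3 it was -0.25. Within a liver the ratio of Krt18 to Krt19 in FPKM was 47.8, 26.3 and 9.67 with the scramble shRNA and 106.2, 107.9 and 83.0 after knockdown. Krt18 thus stood further above Krt19 in every knockdown liver than in any scramble liver. Ratios with Krt8 were less clear. Krt8 to Krt7 in FPKM was 123.5, 45.1 and 15.2 with the scramble shRNA and 54.6, 119.7 and 131.3 after knockdown, which overlap. Krt8 to Krt19 was 54.8, 22.7 and 9.33 with the scramble shRNA and 90.45, 78.1 and 57.6 after knockdown, apart by a narrow margin.

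Sox9 was at 7.17, 10.9 and 6.36 CPM with the scramble shRNA and at 8.65, 9.98 and 9.54 CPM after knockdown. All knockdown livers lay inside the scramble range. Its log2 fold change was 0.21 (SE 0.21, 95% interval -0.27 to 0.69), the narrowest interval of the 9 genes.

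Spp1 was at 16.8, 22.3 and 30.3 CPM with the scramble shRNA and at 84.7, 30.2 and 30.2 CPM after knockdown. A single liver, knockdown 1, was high, and knockdown livers 2 and 3 matched scramble liver 3. The log2 fold change of 1.07 (SE 0.48, 95% interval -0.13 to 2.26) was 0.39 without knockdown liver 1, and Spp1 was not called with or without it. Epcam was close to the detection limit, at 8, 8 and 7 counts with the scramble shRNA and 16, 20 and 22 counts after knockdown. In CPM these were 0.49, 0.50 and 0.42 against 0.81, 1.23 and 1.29. Every knockdown liver was above every scramble liver, with a log2 fold change of 1.22 (SE 0.38, 95% interval 0.35 to 2.08), and Epcam was not among the called genes.

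Cdh1, which encodes E-cadherin, was at 4.78, 7.84 and 8.41 CPM with the scramble shRNA and at 60.7, 50.3 and 23.65 CPM after knockdown. The lowest knockdown liver, liver 3, was still far above the highest scramble liver, while liver 1 was 2.57 times liver 3. The means were 7.01 ± 1.95 and 44.9 ± 19.1 CPM (SD, n = 3 each), with a log2 fold change of 2.68 (SE 0.41, 95% interval 1.69 to 3.67). Relative to the scramble mean the knockdown livers stood at 8.66, 7.17 and 3.37. The call was lost without scramble liver 1 (2.46), 2 (2.75) or 3 (2.83) or knockdown liver 2 (2.59); the direction held in each. All 9 genes had whole-number expected counts in all 6 libraries, so reads shared with related sequences were not split into fractions for any of them.

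**Figure D2:**
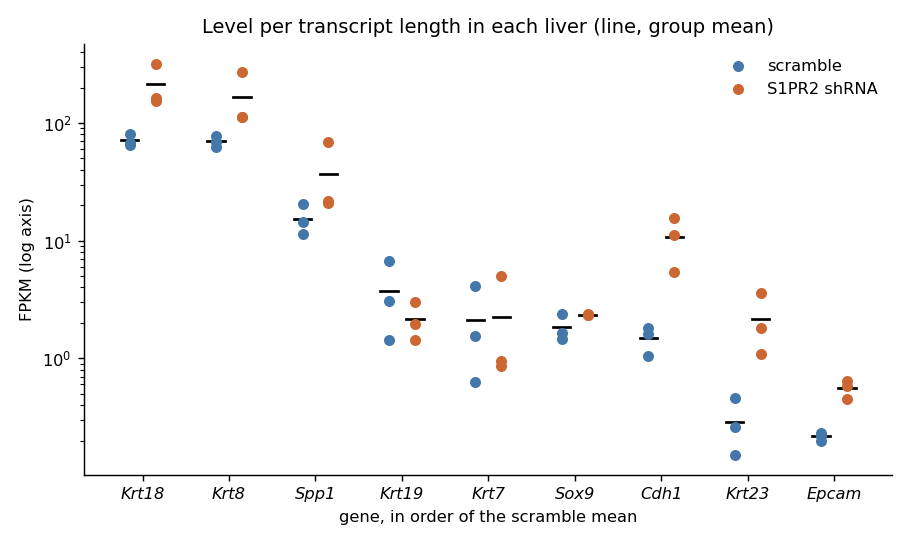
Level of the 9 genes per transcript length, in FPKM on a log axis, in each liver, with the line at the group mean. Krt18 and Krt8 lead in both groups, and Cdh1 moves from the seventh to the fourth place between scramble and knockdown.

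On the FPKM scale, which allows levels of different genes to be set side by side, the scramble order was Krt18 (71.1 ± 8.07), Krt8 (70.1 ± 7.49), Spp1 (15.4 ± 4.52), Krt19 (3.74 ± 2.72), Krt7 (2.10 ± 1.82), Sox9 (1.83 ± 0.50), Cdh1 (1.49 ± 0.40), Krt23 (0.29 ± 0.16) and Epcam (0.22 ± 0.02; SD, n = 3 each). Ranges overlapped between Krt18 and Krt8, along the run from Krt19 through Krt7 and Sox9 to Cdh1, and between Krt23 and Epcam. Ranges over livers thus did not separate those neighbours, but they ignore that genes were measured in the same liver. Within a liver the ratio of Krt7 to Krt19 was 0.44, 0.50 and 0.61 with the scramble shRNA and 1.66, 0.65 and 0.44 after knockdown. Krt7 was therefore below Krt19 in every scramble liver. In the knockdown livers the order was Krt18 (212.9 ± 93.4), Krt8 (166.2 ± 92.6), Spp1 (37.1 ± 27.3), Cdh1 (10.7 ± 5.12), Sox9 (2.35 ± 0.03), Krt7 (2.27 ± 2.37), Krt23 (2.17 ± 1.30), Krt19 (2.14 ± 0.81) and Epcam (0.56 ± 0.10). There Cdh1 was separate from both its neighbours, and Sox9, Krt7, Krt23 and Krt19 overlapped in turn. Krt18 ranked 858 among all genes listed by mean FPKM in the scramble and 367 in the knockdown livers, Krt8 866 and 440, and Cdh1 9004 and 3845.

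The cadherins, catenins and their partners numbered 25 tested, of which 2 rose, 0 fell and 23 did not pass the edgeR test, with a median log2 fold change of 0.20. The share called, 8%, was near the 7.66% of all genes. Cdh2, the N-cadherin that hepatocytes carry beside E-cadherin, rose from 75.3 ± 8.57 to 108.5 ± 2.76 CPM (SD, n = 3 each; 0.53, SE 0.11, edgeR adjusted p = 0.0321). Cdh5, the endothelial VE-cadherin, rose from 14.7 ± 0.96 to 20.6 ± 0.68 CPM (0.49, SE 0.10, edgeR adjusted p = 0.0260). In FPKM the ratio of Cdh1 to Cdh2 was 0.08, 0.10 and 0.12 with the scramble shRNA and 0.60, 0.47 and 0.23 after knockdown. Cdh2 RNA thus remained the more abundant of the pair in every liver. The catenins that tie cadherins to actin had values near 0: Ctnnb1 -0.01 (SE 0.10), Ctnna1 0.02 (SE 0.13) and Ctnnd1 -0.06 (SE 0.12). Both calls, Cdh2 and Cdh5, were lost whichever liver was left out, with log2 fold changes from 0.44 to 0.68 for Cdh2 and from 0.44 to 0.62 for Cdh5 over all alternatives.

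Among 13 tested regulators of E-cadherin 1 rose, 0 fell and 12 did not pass, with a median of 0.19. The share called was 7.69%, near that of all genes. The riser was Elf3, an epithelial ETS-family factor, from 0.41 ± 0.15 to 1.40 ± 0.20 CPM (SD, n = 3 each; a log2 difference of 1.76, SE 0.40, edgeR adjusted p = 0.0365). Its livers stood at 0.25, 0.44 and 0.54 CPM in the scramble and 1.62, 1.23 and 1.35 CPM in the knockdown group, which do not overlap, and the call was lost whichever liver was left out. The repressor genes did not pass: Zeb1 was at -0.29 (SE 0.11, edgeR adjusted p = 0.135), Zeb2 at 0.46 (SE 0.35, adjusted p = 0.470), Snai1 at 0.29 (SE 0.35, adjusted p = 0.672) and Snai2 at 0.14 (SE 0.20, adjusted p = 0.732). Zeb1 had no overlap between groups, with means of 11.8 ± 0.27 and 9.59 ± 0.03 CPM (SD, n = 3 each). Zeb1 and Snai2 had fractional counts in all 6 libraries. These repressor values and those of the desmosome genes that did not pass were picked after they were seen.

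Of 19 tested desmosome and keratin linker genes 1 rose, 1 fell and 17 did not pass, a called share of 10.5% against 7.66% of all genes. Of the 19 values 18 were above 0 (94.7%, against 51.4% of all genes), 8 lay wholly above the scramble livers (42.1%, against 15.1%), and the median was 0.26. The list is mixed: genes that are not desmosomal, such as Krtcap2, Sqstm1, Hspb1 and Tgm2, enter these counts and the median. The shares are therefore not a reading of desmosome genes alone. Dsg2, the desmosomal cadherin of simple epithelia, rose from 48.4 ± 9.04 to 78.5 ± 7.86 CPM (SD, n = 3 each; 0.70, SE 0.15, edgeR adjusted p = 0.0338), with fractional counts in 5 libraries. Csnk1a1, which encodes casein kinase 1 alpha, fell from 56.8 ± 1.02 to 40.4 ± 4.21 CPM (-0.49, SE 0.10, edgeR adjusted p = 0.0304). Eppk1 (0.74, SE 0.21, adjusted p = 0.0818) and Dsp (0.67, SE 0.23, adjusted p = 0.127), which anchor keratin filaments, did not pass in edgeR and did not overlap between groups. Eppk1 had fractional counts in all 6 libraries. The calls of Dsg2 and Csnk1a1 were lost whichever liver was left out, and that of Csnk1a1 also on the 3 FPKM scales.

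Of 18 other keratin genes listed, 1 passed the count filter. That was Krt10, at 8 to 18 counts in a liver, with a log2 difference of -0.35 (edgeR adjusted p = 0.639). Krt14, a basal-cell keratin that did not pass the filter, had 0, 2 and 28 counts with the scramble shRNA and 41, 3 and 0 counts after knockdown, and was picked after its values were seen. Its high livers, scramble 3 and knockdown 1, were those of Krt7. Of 8 tested genes listed as other intermediate filaments 0 passed in edgeR. Syne1 in that list encodes a nuclear envelope linker and not a filament protein, and it enters the count and the median. The most abundant were Lmna (0.44, SE 0.16, edgeR adjusted p = 0.144) and Syne1 (0.11, SE 0.11, edgeR adjusted p = 0.584), and the list median was 0.12.

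**Figure D3:**
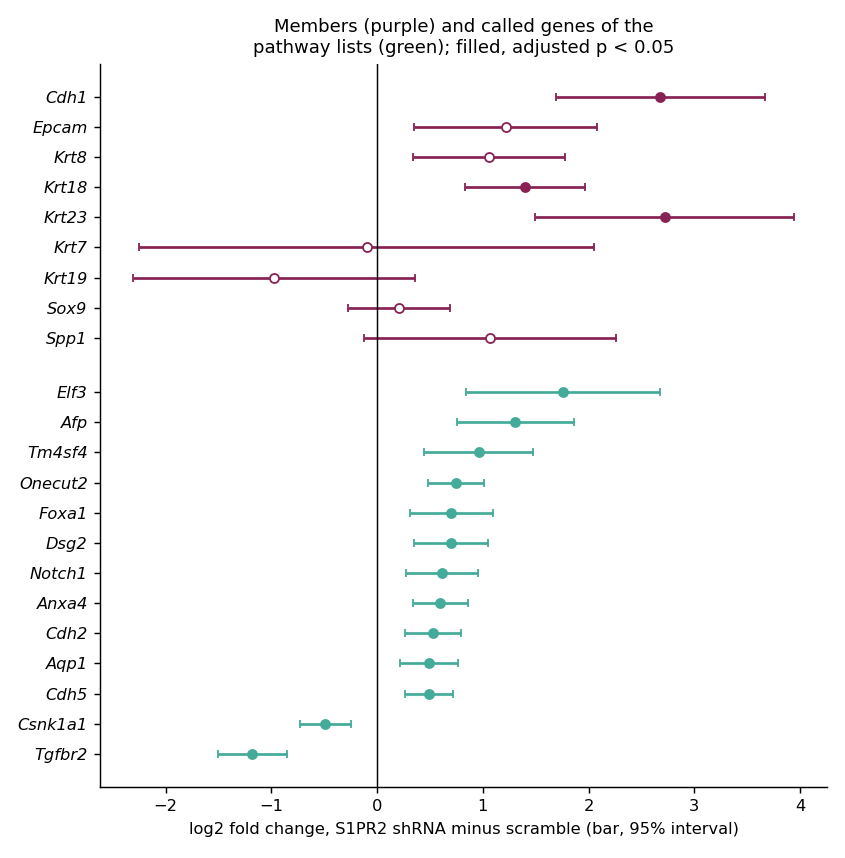
Log2 fold change of the 9 genes (purple) and of called genes of the other lists (green), knockdown minus scramble, with 95% intervals of the edgeR fit and filled points for an adjusted p under 0.05. The intervals of Krt7 and Krt19 are the widest of the 9, and those of Cdh1, Krt18 and Krt23 start at 0.83 or higher.

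Among duct markers outside the 9 genes 6 of 32 tested rose (18.8%, against 3.02% of all genes), 0 fell and 26 did not pass in edgeR. In 13 of the 32 every knockdown liver lay above every scramble liver (40.6%, against 15.1% of all genes), 19 values were above 0 and the median was 0.16. Onecut2, a transcription factor of the duct and hepatocyte lineage, rose from 45.8 ± 5.74 to 76.8 ± 0.92 CPM (SD, n = 3 each; 0.75, SE 0.11, edgeR adjusted p = 0.0109). Tm4sf4, a tetraspanin-like membrane protein, rose from 68.6 ± 14.6 to 133.4 ± 34.3 CPM (0.96, SE 0.22, edgeR adjusted p = 0.0433). The water channel Aqp1, which sinusoidal endothelium also carries (0.49, SE 0.12, adjusted p = 0.0450), the annexin Anxa4 (0.60, SE 0.11, adjusted p = 0.0222) and Elf3 rose as well in edgeR. On the other side Wfdc2 (-1.05, SE 0.27, adjusted p = 0.0530) and the bile acid transporter Slc10a2 (-1.25, SE 0.41, adjusted p = 0.109), picked after their values were seen, did not pass in edgeR; Slc10a2 had fractional counts in all 6 libraries. The call of Onecut2 was lost without knockdown liver 2 (adjusted p = 0.0543). Those of Tm4sf4, Aqp1 and Elf3 were lost whichever liver was left out, and that of Anxa4 held only without knockdown liver 1. Tm4sf4 also lost its call on the 3 FPKM scales and Aqp1 with limma-voom.

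Genes of the signals that steer hepatocytes and duct cells apart had 2 rises, 1 fall and 42 that did not pass among 45 tested, with a median of 0.10 and a called share of 6.67% against 7.66% of all genes. Tgfbr2, the type II receptor for TGF-beta, fell from 95.6 ± 11.7 to 42.2 ± 5.75 CPM (SD, n = 3 each; -1.18, SE 0.14, edgeR adjusted p = 0.00531). Its livers stood at 102.2, 102.6 and 82.1 CPM in the scramble and at 47.8, 36.3 and 42.5 CPM in the knockdown group, and it was called under each of the 17 alternatives. Notch1 rose from 11.8 ± 1.09 to 17.95 ± 3.06 CPM (0.61, SE 0.15, edgeR adjusted p = 0.0461) and the liver pioneer factor Foxa1 from 16.1 ± 3.13 to 26.2 ± 4.14 CPM (0.70, SE 0.17, edgeR adjusted p = 0.0450). Notch1 kept its call only without knockdown liver 3 and Foxa1 only without scramble liver 2, among the single livers left out. Notch1 also lost its call with limma-voom, with edgeR without the robust option and on the 3 FPKM scales, and Foxa1 with edgeR without the robust option. The Notch targets Hes1 (0.29, SE 0.42, adjusted p = 0.736) and Heyl (0.25, SE 0.55, adjusted p = 0.829) and the hepatocyte factor Hnf4a (-0.36, SE 0.17, adjusted p = 0.251) did not pass in edgeR, named after their values were seen. Of 23 tested genes of injured or fetal hepatocytes 1 rose, 0 fell and 22 did not pass, with a median of 0.21 and a called share of 4.35%. Afp, the fetal serum protein gene, rose from 3.10 ± 0.94 to 7.69 ± 0.74 CPM (1.31, SE 0.24, edgeR adjusted p = 0.0197), and lost its call without scramble liver 3 or knockdown liver 2 or 3.

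**Figure D4:**
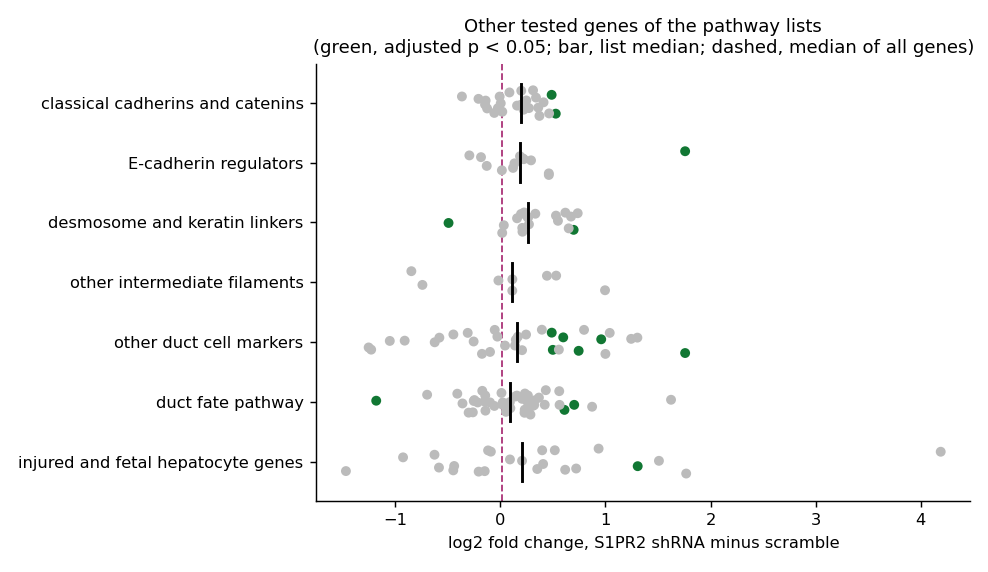
Log2 fold change, knockdown minus scramble, of each tested gene of the 7 pathway lists, without the 9 genes; green points have an edgeR adjusted p under 0.05, the bar is the list median and the dashed line the median of all genes. List medians lie between 0.10 and 0.26, against 0.01 for all genes, and the called points of the duct marker list all lie above 0.

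Marker lists of the cell types in liver were summed per liver, because several of them carry the same keratins. Hepatocyte markers, 24 genes led by Alb, summed to 260900 to 278500 CPM in the scramble and to 167100, 218100 and 212900 CPM after knockdown, so the livers with more Krt8 and Krt18 had less of them; their part in the keratin values was not tested. Of these 24 genes 0 rose, 1 fell and 23 did not pass, a called share of 4.17% against 7.66% of all genes. The list of 15 duct markers summed to 73.7 to 78.5 CPM in the scramble and 109.1 to 118.6 CPM in the knockdown livers. Of these 6 were tested and 9 were under the count filter. Among the 6 tested, 2 rose (33.3%, against 3.02% of all genes), 0 fell and 4 did not pass. Onecut2 alone was at 49.9, 48.2 and 39.2 CPM with the scramble shRNA and at 76.5, 77.8 and 76.0 CPM after knockdown, so this single gene made up most of the sum. The sum is therefore mainly a reading of that gene. Of the defining duct markers Sctr was at 0 counts in 5 of 6 libraries, Cldn4 in 2 and Cftr in 1.

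Mesothelial cells of the liver surface also carry Krt7, Krt8, Krt18 and Krt19. Their 9 markers, led by Upk3b, Msln and Gpm6a, summed to 10.1, 41.4 and 63.4 CPM with the scramble shRNA and to 55.8, 14.9 and 21.4 CPM after knockdown, and none of the 9 passed in edgeR (0 rose, 0 fell). Scramble liver 3 and knockdown liver 1 were the high livers for this list, for Krt7 and for Krt14; their part in the Krt7 and Krt19 values was not tested. Its part in the Krt8 and Krt18 values was not tested either. Macrophage markers, 16 genes led by Lyz2, summed to 181.1, 198.7 and 463.3 CPM in the scramble and to 575.1, 282.4 and 284.0 CPM in the knockdown livers (0 of 15 tested passed), and stellate markers, 14 genes led by Dcn, to 243.0, 362.2 and 586.0 and to 644.4, 362.0 and 383.5 CPM (0 of 14 passed). Knockdown liver 1, the liver with high Spp1, was the highest in both lists, and their part in the Spp1 value was not tested.

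The endothelial list held 14 genes, led by Dpp4, Eng and Stab2. Of these 4 rose (28.6%, against 3.02% of all genes), 0 fell and 10 did not pass. Dpp4, which is not particular to endothelium, was at 168.4, 160.8 and 153.9 CPM with the scramble shRNA. After knockdown it was at 131.8, 160.6 and 169.3 CPM (-0.07, SE 0.13, edgeR adjusted p = 0.811). It made up a large part of the sums of the list. In 8 of the 14 the knockdown livers lay wholly above the scramble livers (57.1%, against 15.1% of all genes), with sums of 511.4 to 538.3 CPM in the scramble and 584.1 to 615.3 CPM in the knockdown livers. Lymphocyte and dendritic markers summed to 2.51 to 5.85 and 7.89 to 15.8 CPM. Of these 1 of 3 tested rose, Cd4 (33.3%, against 3.02% of all genes), and 13 were under the count filter. Cd4 alone was at 0.37, 1.74 and 0.42 CPM with the scramble shRNA and at 3.95, 9.98 and 5.62 CPM after knockdown. The difference of the sums is therefore largely a reading of that gene. Neutrophil markers summed to 4.60 to 10.02 and 7.35 to 9.97 CPM, and 0 of 3 tested passed. Pancreatic acinar markers, led by Cela1, summed to 5.82 to 10.1 and 10.7 to 31.8 CPM with 0 of 2 tested past the test. Gallbladder and gut markers, led by Fabp2, summed to 39.6 to 52.2 and 51.7 to 70.1 CPM. Of the gallbladder and gut markers 1 of 7 tested rose (14.3%, against 3.02% of all genes).

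**Figure D5:**
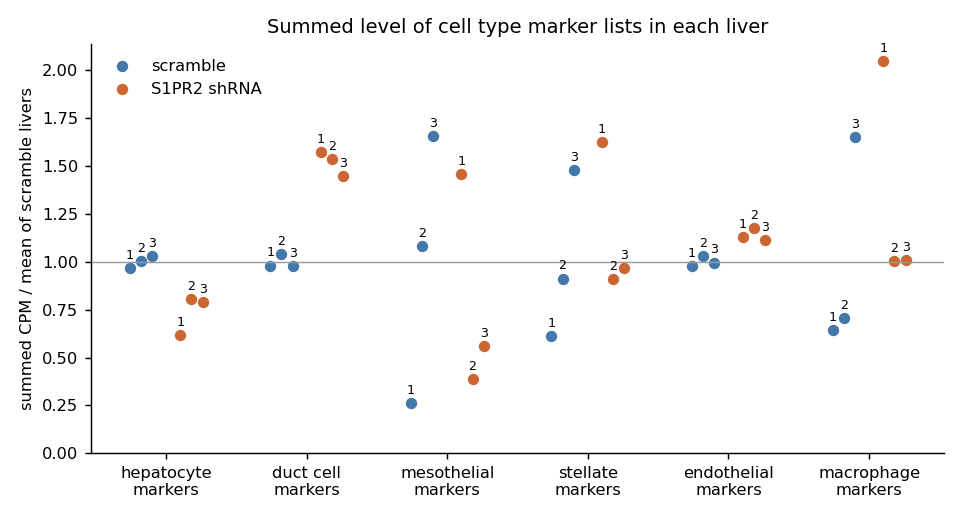
Summed CPM of 6 marker lists in each liver, divided by the mean of the scramble livers, with livers numbered within each group. Mesothelial, stellate and macrophage sums are high in scramble liver 3 and knockdown liver 1, and hepatocyte sums are lower in the knockdown livers.

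Genes with a profile like that of Cdh1 or Krt23 over the 6 livers were named by the root mean square difference of centred log2 CPM, as above, among genes averaging 5 CPM or more. Nearest to Cdh1 were Apol9b (0.32), Pdilt (0.32), Apol9a (0.43), Igfbp2 (0.43) and Dpy19l3 (0.44). Igfbp2, whose product binds insulin-like growth factors, went from a mean of 31.0 to 191.8 CPM, and Pdilt, a protein disulfide isomerase-like gene, from 2.50 to 14.5 CPM. Apol9a and Apol9b had fractional counts in all 6 libraries, so their values are uncertain where reads are shared between copies. Nearest to Krt23 were Dpy19l3 (0.38), Spon2 (0.43), Serpina7 (0.44), Gdf15 (0.51) and Mapk15 (0.56). Serpina7, which encodes thyroxine-binding globulin, went from 18.3 to 85.0 CPM, and the stress cytokine Gdf15 from 5.48 to 18.6 CPM. Gdf15 was not called (edgeR adjusted p = 0.178), with scramble liver 1 at 10.29 and knockdown liver 3 at 10.48 CPM. Dpy19l3 stood in both sets, at 1.96, 1.80 and 1.70 CPM with the scramble shRNA and 11.6, 9.62 and 6.03 CPM after knockdown, the same falling order of knockdown livers as Cdh1 and Krt23. The measure is taken over 6 livers in 2 groups and describes likeness of level only.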

How the data were processed

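Total RNA of 6 livers was sequenced on a DNB platform. The submitters' processing notes name the build mm9 and, as tools, RSEM 1.2.12, DESeq2, Bowtie2 and HISAT2. Roles, filters and strand handling: not given in the sources used here. In the deposited tables the values are expected counts, fragments assigned to each gene without scaling, and FPKM, scaled by the authors to transcript length and library size. Genes not listed in a library were taken as 0. Between 19 and 23 genes a library had no symbol (0.204 to 0.255% of counts) and kept their identifier. Depth was 16558775 to 17410160 counts a library.

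Expected counts were rounded, filtered with filterByExpr (minimum count 10) and scaled by TMM, and groups were compared with the quasi-likelihood F test of edgeR 4.0.16 (robust, two-sided, group only, R 4.3.3), with Benjamini-Hochberg adjustment over all 12230 genes tested. The script was tested on simulated data. CPM uses TMM factors, and log2 CPM a prior count of 2. No list was tested as a set. The 9 genes, the lists and the motifs were chosen with earlier results of these data known. Named genes were the 9, S1pr2, up to 6 called genes per pathway list (or its 2 most abundant), other keratins of at least 1 CPM, the 5 nearest profiles and the 3 most abundant of each marker list; others are marked as picked afterwards. Some genes of the lists enter the counts and sums and are not reported here by name. Alternatives were other scalings, filters and tests (DESeq2 1.42.0, limma 3.58.1 with voom or on FPKM), a replicate block and leaving out each liver. Promoters came from RefSeq GRCm38.p6.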

Additional observations from a re-analysis of the deposited data

How the results depend on the processing

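The number of called genes was 937, and it was 1461 with the DESeq2 Wald test and 231 to 643 with a liver left out. Genes called higher numbered 369; 616 with DESeq2, 570 and 551 on log2(FPKM + 0.1) and log2(FPKM + 1), and 78 to 266 with a liver left out. Genes called lower numbered 568; 254 and 243 on those FPKM scales, 205 on log2(FPKM + 0.1) with no filter, and 153 to 377 with a liver left out. On FPKM the middle log2 difference over all genes was 0.16, 0.10 and 0.13, against 0.01. Of the 9 genes 3 were called; 4 with DESeq2 (Krt8 added) and on FPKM (Epcam added), 2 with limma-voom, and 0 to 3 with a liver left out, 0 being without scramble liver 3. Of the other list genes 14 were called, 24 with DESeq2 and 1 to 6 with a liver left out. Krt7 was -0.10 and turned to 0.0026, 0.0092 and 0.0026 on the 3 FPKM scales and to 0.83, 0.23 and 0.26 without scramble liver 3, knockdown liver 2 or knockdown liver 3; its lowest value, -1.30, was without knockdown liver 1. The cause of these shifts was not tested. The other 8 genes kept their direction under each alternative run. Deviations of same-numbered livers correlated at -0.06, 0.22 and -0.12, and those of other numbers at -0.30 to 0.30. With 3 livers a group these values cannot settle whether the numbers pair livers, and the labels name no pairing. With the replicate block 808 genes, 2 of the 9 and 18 other list genes were called. Cdh1 lost its call (2.60), and S1pr2 (edgeR adjusted p = 0.0684), Elf3, Dsg2 and Tm4sf4 also lost theirs. Epcam and Krt23 rest on 4 to 96 counts a liver.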

Other observations

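The genes next to the members along the chromosome, by RefSeq order on GRCm38.p6, were looked up after the values of the members were seen. Krt8 and Krt18 are direct neighbours. The next gene beyond Krt18, the translation factor gene Eif4b, differed by 0.49 on the log2 scale (SE 0.19, edgeR adjusted p = 0.159), from a mean of 175.6 to 246.1 CPM, and Tns2 beyond it by 0.46 (SE 0.15, edgeR adjusted p = 0.111). On the sides of Cdh1, Cdh3, which encodes P-cadherin, was at 0.22 (SE 1.16, edgeR adjusted p = 0.935) and Tango6 at -0.28 (SE 0.19, edgeR adjusted p = 0.431). Zfp90, beyond Cdh3, was at 0.46 (SE 0.32, edgeR adjusted p = 0.425). None of these 5 genes passed. The other neighbours looked up were not tested. Next to Krt23, Krt20 had means of 0.27 and 0.09 CPM and was under the count filter.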
